A study of Danio rerio with 9 samples.

Results

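The *hox* cluster genes were taken from the deposited read counts by symbol, as every gene named *hox* with a cluster letter from a to d, a paralog number and the a or b of the duplicated zebrafish clusters. The rule found 49 genes of 41977 rows, in 7 clusters and 13 paralog groups. The libraries came from whole zebrafish embryos of the wild type strain TE frozen at about 6.75 hpf (hours of development after fertilization, shield stage), with 10 embryos pooled per sample and 3 samples per group. *bmp*-overexpressing embryos had received 10 pg mRNA encoding zebrafish Bmp2b at the one-cell stage, *chordin*-overexpressing embryos 100 pg mRNA encoding zebrafish Chordin, an extracellular BMP inhibitor, and uninjected embryos no mRNA. Uninjected embryos were not injected with a control mRNA, so in comparisons with them the injected message cannot be told apart from injection itself. The *bmp* and *chordin* groups were both injected, with different amounts of mRNA. Nothing in the labels says whether the samples of a group came from separate clutches, so that p-values measure the spread between these samples. The comparisons ask whether raising or blocking BMP signaling at early gastrulation was accompanied by a change in *hox* transcripts.

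*hox* genes encode homeodomain transcription factors that give cells their position along the head-to-tail axis. Within a cluster they are ordered by paralog number, and in vertebrates the low numbers are generally switched on earlier and further forward (hindbrain) than the high numbers (trunk and tail). Caudal-type (*cdx*) factors, retinoic acid, FGF and Wnt signals are known to act upstream of them. BMP patterns the dorsal-ventral axis of the gastrula and also acts in the ventral margin, from which much of the tail derives. Paralog groups 1 to 3 are called anterior here, 4 to 8 central and 9 to 13 posterior.

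Library depth ranged from 8861308 to 22372856 counts, and the lowest depth was that of *chordin* replicate 2. The injected messages matched the labels in every library. *bmp2b* had 8915 to 12965 counts in *bmp*-overexpressing embryos, 718 to 1346 in *chordin*-overexpressing embryos and 1609 to 2296 in uninjected embryos. The *chordin* gene, *chd*, had 324 to 523 counts in *bmp*-overexpressing embryos, 14549 to 39211 in *chordin*-overexpressing embryos and 2940 to 5024 in uninjected embryos. Counts of these genes can hold both the injected and the embryo's own message.

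Few *hox* reads were counted in any group at shield stage. All 49 genes together had 1267 counts of the 131935680 in the 9 libraries. 5 genes had no count in any library (*hoxb4a*, *hoxd4a*, *hoxc5a*, *hoxb6a* and *hoxb6b*), and these belong to paralog groups 4, 5 and 6. The 44 others had at most 100 counts summed over the libraries, and the median over the 49 genes was 15. Of the 441 gene and library pairs, 254 were at 0 and 108 held more than 3 counts. No *hox* gene had a count in all 9 libraries. 35 genes passed 3 counts in some library and 14 in none. The highest single value was 36 counts, for *hoxc10a* in *bmp* replicate 2. A count of 0 allows up to 3 counts, which is 0.129 to 0.341 CPM (the count relative to the library's TMM-scaled total) depending on the library. This limit covers counting error only.

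**Figure D1:**
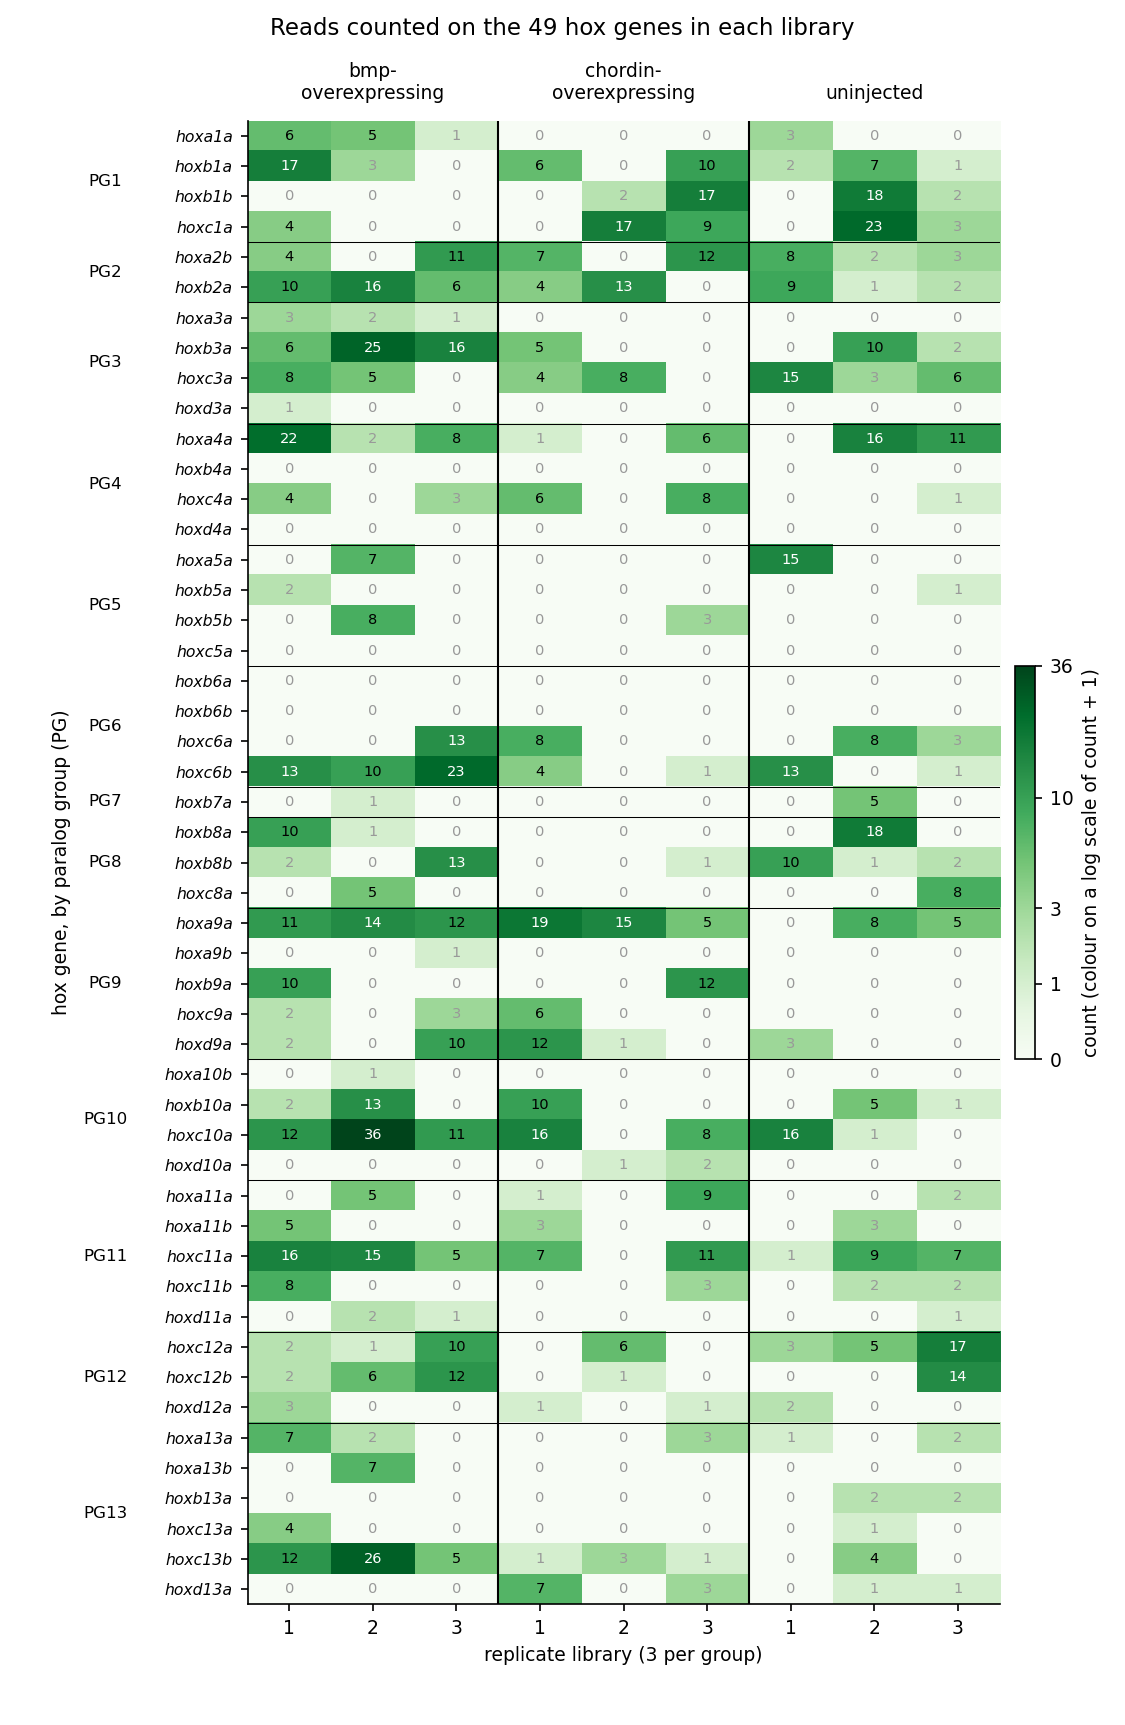
Reads counted on each of the 49 *hox* genes (rows, ordered by paralog group PG1 to PG13) in each of the 9 libraries (columns, 3 replicates per group), printed in the cells and coloured on a log scale of count + 1. Most cells are at 0, and the darkest is the 36 counts of *hoxc10a* in *bmp* replicate 2.

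Per transcript length, levels were low as well. In the authors' pooled Cuffdiff values (FPKM, 1 value per group without a spread), the highest *hox* values were 0.69 FPKM for *hoxa4a* in *bmp*-overexpressing embryos, 0.62 FPKM for *hoxb1a* in *chordin*-overexpressing embryos and 0.83 FPKM for *hoxc12a* in uninjected embryos. On the same scale *eve1*, an even-skipped gene next to the *hoxba* cluster, was at 216 FPKM in *bmp*-overexpressing embryos, 14.9 FPKM in *chordin*-overexpressing embryos and 119 FPKM in uninjected embryos. The deposited tables place 29 of the 49 genes in 8 loci that are joined with a neighbouring gene, and for these the coordinates are those of the joined locus rather than of the gene. The libraries do not record strand, so reads from a *hox* gene and from an overlapping or antisense transcript cannot be told apart. Counts per gene and FPKM did not always give the same order of groups: *hoxc12b* averaged 0.50 ± 0.41 CPM in *bmp*-overexpressing embryos and 0.34 ± 0.58 CPM in uninjected embryos (SD, n = 3 each), whereas the authors' FPKM was 0.31 with *bmp* and 0.65 in uninjected embryos.

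7 *hox* genes were detected in *bmp*-overexpressing embryos, 1 in *chordin*-overexpressing embryos and 0 in uninjected embryos. Detected means more than 3 counts in each of the 3 libraries of a group. Of all other rows, 38.1% were detected by this rule in *bmp*-overexpressing embryos, 37.2% in *chordin*-overexpressing embryos and 38.1% in uninjected embryos. Those rows span all levels, and the share among rows with as few counts as the *hox* genes was not computed. The detected genes with *bmp* came from paralog groups 2, 3, 6, 9, 10, 11 and 13, with 1 gene from each. Paralog groups 1, 4, 5, 7, 8 and 12 had no detected member in any group.

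Among anterior genes, *hoxb2a* and *hoxb3a* were detected with *bmp*, and both are known from the hindbrain. *hoxb2a* had 10, 16 and 6 counts in *bmp*-overexpressing embryos, 4, 13 and 0 in *chordin*-overexpressing embryos and 9, 1 and 2 in uninjected embryos. Its ranges overlap in each pair of groups. *hoxb3a* had 6, 25 and 16 counts in *bmp*-overexpressing embryos, 5, 0 and 0 in *chordin*-overexpressing embryos and 0, 10 and 2 in uninjected embryos. In CPM the lowest *bmp* library of *hoxb3a* (0.44) was above the highest uninjected library (0.43) with TMM scaling, and without scaling factors these groups overlap. Both genes lie in 1 joined locus on chromosome 3 (GRCz10, 23567485 to 23919579), which also holds *hoxb1a*, *hoxb4a*, *hoxb5a* and *hoxb6a*.

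*hoxb1b* and *hoxc1a*, of paralog group 1, were not detected in any group. *hoxb1b*, which is known to be expressed in the zebrafish gastrula and to act in hindbrain segmentation, had 0, 0 and 0 counts in *bmp*-overexpressing embryos, 0, 2 and 17 in *chordin*-overexpressing embryos and 0, 18 and 2 in uninjected embryos. *hoxc1a* had 4, 0 and 0 counts with *bmp*, 0, 17 and 9 with *chordin* and 0, 23 and 3 in uninjected embryos. For both genes, 1 library of the *chordin* group and 1 of the uninjected group were at 0, and the groups overlap. *hoxb1a* had 17, 3 and 0 counts with *bmp*, 6, 0 and 10 with *chordin* and 2, 7 and 1 in uninjected embryos.

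The central gene detected with *bmp* was *hoxc6b*, of the paralog group that marks the anterior trunk in vertebrates. It had 13, 10 and 23 counts in *bmp*-overexpressing embryos, 4, 0 and 1 in *chordin*-overexpressing embryos and 13, 0 and 1 in uninjected embryos. All *bmp* libraries were above all *chordin* libraries, and uninjected replicate 1 reached the level of the *bmp* group. *hoxa4a* fell just short of detection, with 22, 2 and 8 counts with *bmp*, 1, 0 and 6 with *chordin* and 0, 16 and 11 in uninjected embryos.

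4 posterior genes were detected with *bmp*, and these belong to paralog groups known from the posterior trunk, the tail and, for some members, the fins. *hoxa9a* (chromosome 19, 20177149 to 20179188, GRCz10) had 11, 14 and 12 counts with *bmp*, 19, 15 and 5 with *chordin* and 0, 8 and 5 in uninjected embryos, and it was the only *hox* gene detected in 2 groups. Its mean level was 0.90 ± 0.08 CPM with *bmp*, 1.17 ± 0.77 CPM with *chordin* and 0.23 ± 0.20 CPM in uninjected embryos (SD, n = 3 each). *hoxc10a* (chromosome 23, 35983474 to 35988361) had 12, 36 and 11 counts with *bmp*, 16, 0 and 8 with *chordin* and 16, 1 and 0 in uninjected embryos. The *bmp* replicates of *hoxa9a* were close together, whereas 1 *bmp* library held most of the *hoxc10a* counts.

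*hoxc11a* (chromosome 23, 35976076 to 35978956) had 16, 15 and 5 counts with *bmp*, 7, 0 and 11 with *chordin* and 1, 9 and 7 in uninjected embryos, with overlap between groups. *hoxc13b*, of the most posterior paralog group, had 12, 26 and 5 counts with *bmp*, 1, 3 and 1 with *chordin* and 0, 4 and 0 in uninjected embryos. All *bmp* libraries of *hoxc13b* were above the libraries of both other groups. The gap to *chordin* was narrow, with 0.398 CPM in *bmp* replicate 3 and 0.341 CPM in *chordin* replicate 2. *hoxc13b* and *hoxc6b* share a joined locus on chromosome 11 (2062887 to 2227446) with *hnrnpa1a*, which encodes an abundant RNA-binding protein and was at 614 ± 32.3 CPM with *bmp*, 642 ± 30.2 CPM with *chordin* and 636 ± 29.9 CPM in uninjected embryos (SD, n = 3 each). *hnrnpa1a* did not pass the test in *bmp*-overexpressing or *chordin*-overexpressing against uninjected embryos (limma adjusted p = 0.877 and 0.966), and its part in these *hox* counts was not tested.

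**Figure D2:**
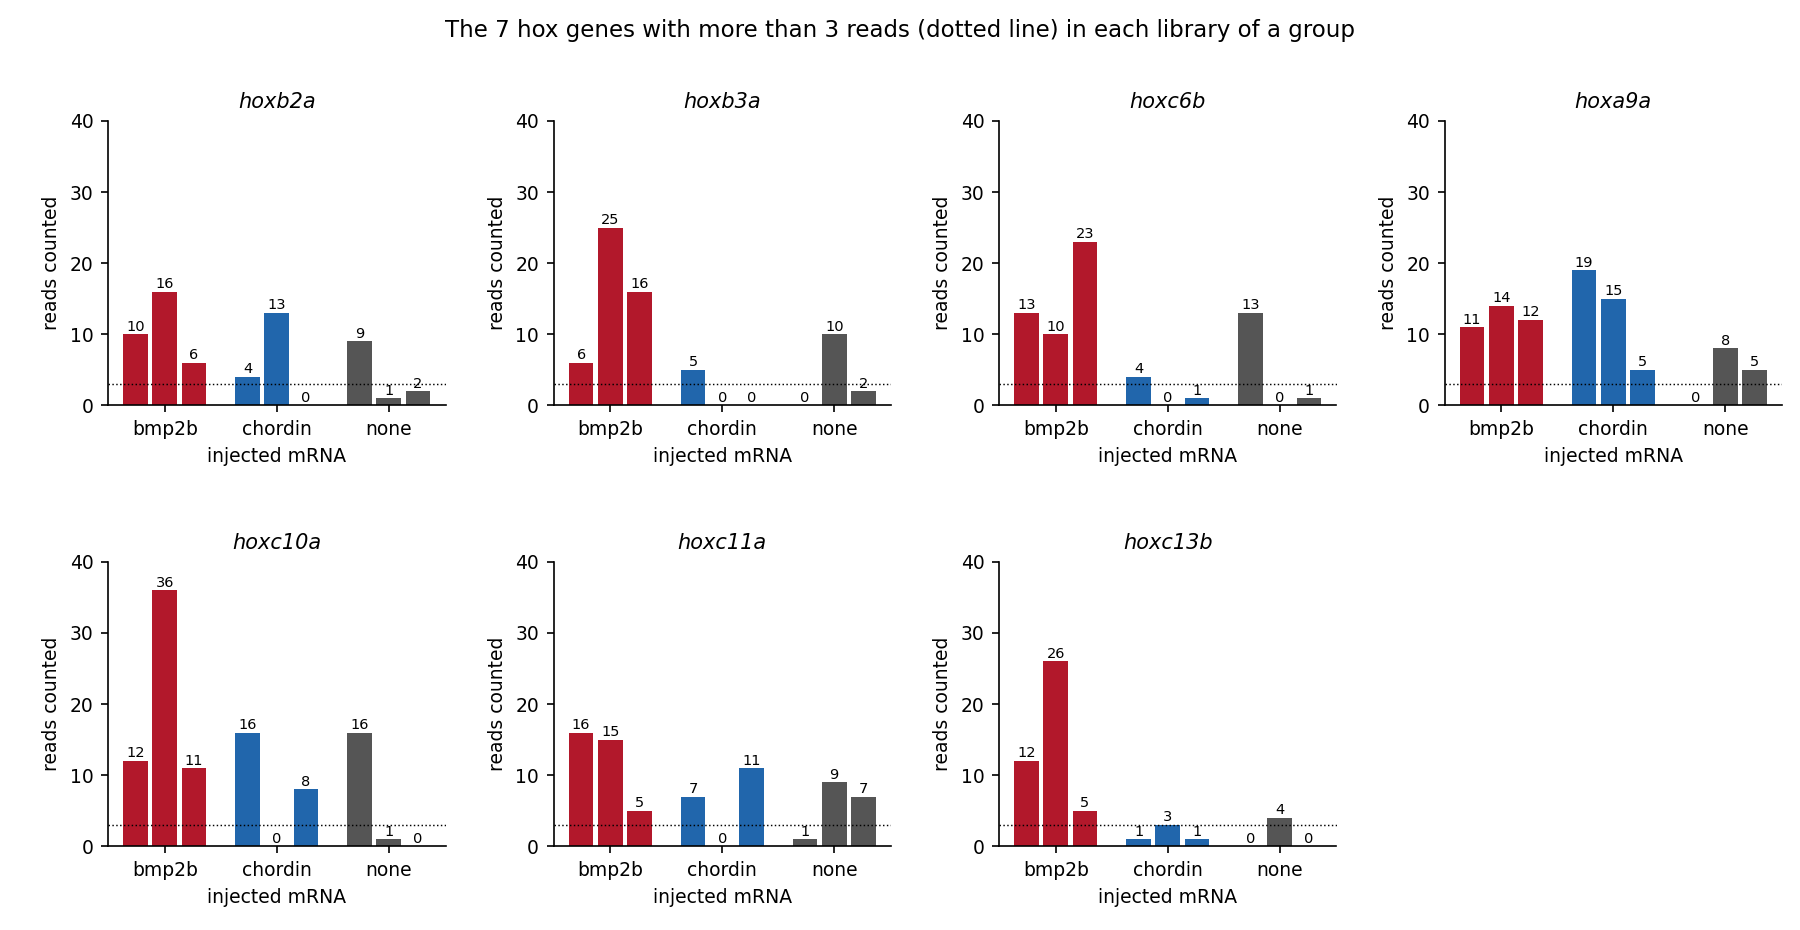
Reads counted in each replicate library (bars, replicates 1 to 3 from left to right within each group, counts printed above) for the 7 *hox* genes detected in a group, by injected mRNA, with the limit of 3 counts dotted. Every *bmp2b* bar is above the limit, while each gene other than *hoxa9a* has at least 1 *chordin* library, and every gene at least 1 uninjected library, at or below it. This restates the rule by which the genes were chosen and the groups in which they were detected.

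The other *hox* genes that passed 3 counts in some library were detected in no group. Among anterior genes these were *hoxa1a*, with 6, 5 and 1 counts with *bmp*, 0, 0 and 0 with *chordin* and 3, 0 and 0 in uninjected embryos, as well as *hoxa2b* and *hoxc3a*. *hoxa2b* had 4, 0 and 11 counts with *bmp*, 7, 0 and 12 with *chordin* and 8, 2 and 3 in uninjected embryos. *hoxc3a* had 8, 5 and 0 counts with *bmp*, 4, 8 and 0 with *chordin* and 15, 3 and 6 in uninjected embryos. Central ones, beside *hoxa4a*, were *hoxc4a* (22 counts in all), *hoxa5a* (22), *hoxb5b* (11), *hoxc6a* (32), *hoxb7a* (6), *hoxb8a* (29), *hoxb8b* (29) and *hoxc8a* (13). Each of these 8 genes was at 0 in at least 1 *bmp* library. Posterior ones were *hoxb9a* (22 counts in all), *hoxc9a* (11), *hoxd9a* (28), *hoxb10a* (31), *hoxa11a* (17), *hoxa11b* (11), *hoxc11b* (15), *hoxc12a* (44), *hoxc12b* (35), *hoxa13a* (15), *hoxa13b* (7), *hoxc13a* (5) and *hoxd13a* (12). *hoxc12a* had 2, 1 and 10 counts with *bmp*, 0, 6 and 0 with *chordin* and 3, 5 and 17 in uninjected embryos. *hoxc12b* had 2, 6 and 12 counts with *bmp*, 0, 1 and 0 with *chordin* and 0, 0 and 14 in uninjected embryos, and for both genes uninjected replicate 3 held the highest count. All 7 counts of *hoxa13b* fell in *bmp* replicate 2, whereas *hoxd13a* had 0 counts with *bmp*, 10 with *chordin* and 2 in uninjected embryos.

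The count of detected genes depends on the limit and on single libraries. 5 further genes had at least 1 count in each *bmp* library without passing 3 in all (*hoxa1a*, *hoxa3a*, *hoxa4a*, *hoxc12a* and *hoxc12b*), which makes 12 genes, against 2 in *chordin*-overexpressing embryos and 7 in uninjected embryos at that limit. With more than 10 counts in each library, *hoxa9a* and *hoxc10a* remained with *bmp*, and 0 genes passed in either other group. Without *chordin* replicate 2, the shallowest library, 6 genes passed 3 counts in both other *chordin* libraries, and without uninjected replicate 1, 4 genes did so in the uninjected group. The shares of other rows at these limits, and with a library left out, were not computed. These counts therefore do not show a difference particular to *hox* genes.

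Summed over the 49 genes, *hox* counts were highest with *bmp*. The sum was 15.4, 14.5 and 13.1 CPM in *bmp*-overexpressing embryos, 10.2, 7.61 and 7.19 CPM in *chordin*-overexpressing embryos and 6.62, 6.58 and 7.22 CPM in uninjected embryos. The means were 14.3 ± 1.13, 8.32 ± 1.60 and 6.81 ± 0.358 CPM in the same order of groups (SD, n = 3 each). The *bmp* libraries did not overlap with either other group, and the *chordin* and uninjected libraries overlap. The ratio of means was 2.11 for *bmp* over uninjected, 1.22 for *chordin* over uninjected and 1.72 for *bmp* over *chordin*.

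The other rows of the tables with 1 to 100 counts in all moved in the same direction. They moved by less in the pairs with *bmp* and by about as much for *chordin* over uninjected. Their sum was 2928 ± 238 CPM with *bmp*, 2754 ± 450 CPM with *chordin* and 2238 ± 251 CPM in uninjected embryos (SD, n = 3 each), which gives ratios of 1.31, 1.23 and 1.06 for the same 3 pairs of groups. Over all *hox* genes the *chordin* ratio is therefore close to that of all low-count rows, but this did not hold for each part. It was 1.64 for the 20 genes with a locus of their own. The 29 genes of joined loci were at 4.48 CPM with *chordin* and 4.47 CPM in uninjected embryos. In summed CPM, all *bmp* libraries of the other low-count rows (2720 to 3188) also lay above all uninjected libraries (1953 to 2427). Separation of *bmp* from uninjected libraries is therefore not particular to the *hox* sum. For those rows the *bmp* and *chordin* libraries (2383 to 3254) overlap, unlike for the *hox* sum. The part of the general shift of low-count rows in the *bmp* ratio was not tested. Without the 7 detected genes the *bmp* ratio over uninjected embryos was 1.41, against 1.31 for the other low-count rows. These 7 genes were chosen for counts in the *bmp* group or the *chordin* group, so a lower *bmp* ratio without them follows from that choice. In whole embryos, fewer cells with a transcript and less transcript per cell cannot be told apart.

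By region, the posterior genes were at 7.09 ± 1.48 CPM with *bmp*, 4.33 ± 1.96 CPM with *chordin* and 2.46 ± 1.25 CPM in uninjected embryos (23 genes, SD, n = 3 each). The lowest *bmp* library (5.57 CPM) was above the highest uninjected library (3.90 CPM), and *bmp* and *chordin* libraries overlap. The 16 central genes were at 3.64 ± 1.27 CPM with *bmp*, 0.867 ± 0.779 CPM with *chordin* and 2.168 ± 0.286 CPM in uninjected embryos. Here all *chordin* libraries (0 to 1.51 CPM) were below all uninjected libraries (1.95 to 2.49 CPM), and *chordin* replicate 2 held no count on any central *hox* gene. The 10 anterior genes were at 3.61 ± 0.773 CPM with *bmp*, 3.12 ± 1.28 CPM with *chordin* and 2.18 ± 0.721 CPM in uninjected embryos. For the anterior genes the *bmp* and *chordin* libraries overlap. With TMM scaling the lowest *bmp* library (2.79 CPM) was just above the highest uninjected library (2.75 CPM). These libraries held 35 of 12536836 counts (*bmp* replicate 3) and 64 of 22372856 (uninjected replicate 2), so without scaling factors the groups overlap.

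**Figure D3:**
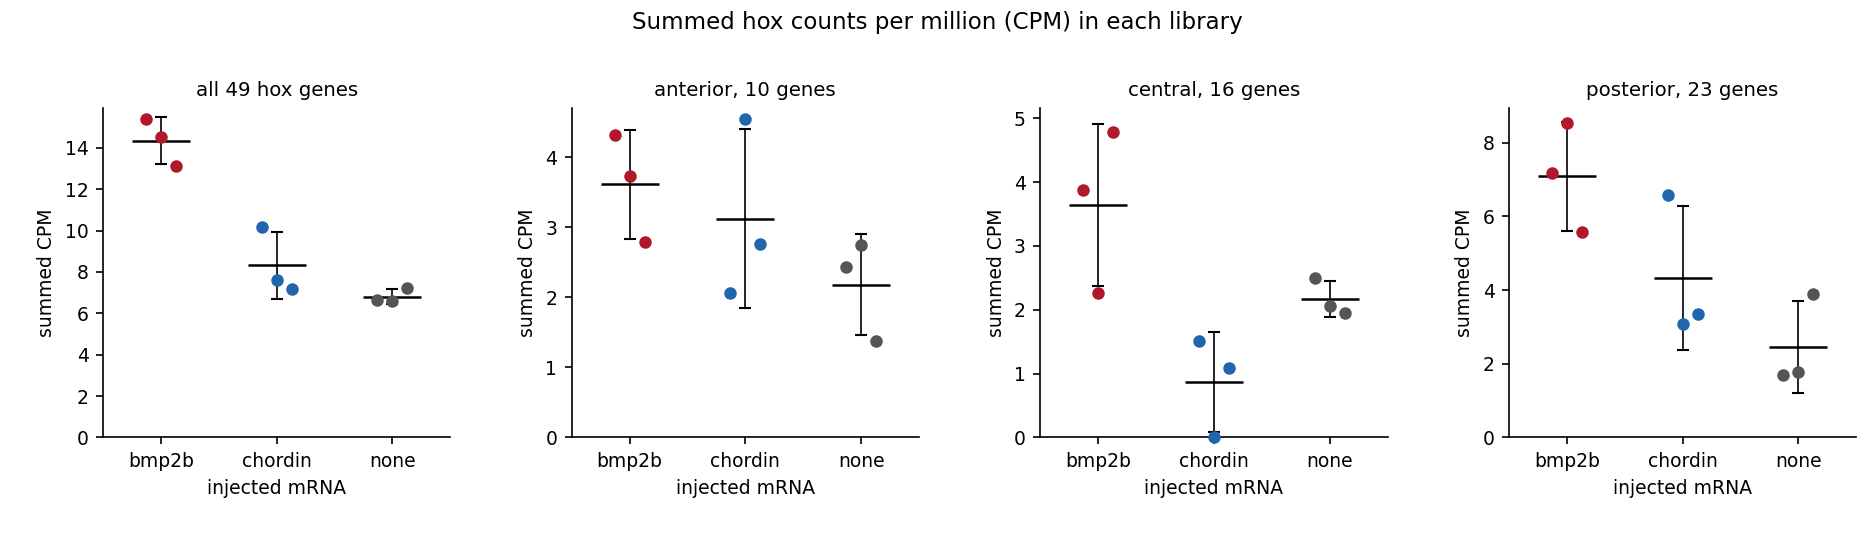
Summed CPM of all 49 *hox* genes and of the anterior, central and posterior genes in each library (points), with the mean and SD of the 3 replicates (lines and bars), by injected mRNA. The *bmp2b* libraries stand above the others for all genes together (13.1 to 15.4 CPM), and the *chordin* libraries are lowest for the central genes.

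Within regions, paralog groups varied. Paralog group 8 (*hoxb8a*, *hoxb8b* and *hoxc8a*) was at 0.771 ± 0.331 CPM with *bmp*, 0.0192 ± 0.0332 CPM with *chordin* and 0.732 ± 0.0809 CPM in uninjected embryos (SD, n = 3 each). The 3 *chordin* libraries held 1 count of this group in all, against 31 in the *bmp* libraries and 39 in the uninjected libraries. In uninjected embryos a different gene held most of these counts in each replicate. *hoxb8b* had 10, 1 and 2 counts, *hoxb8a* 0, 18 and 0, and *hoxc8a* 0, 0 and 8. The small SD of the sum therefore does not reflect a steady level of any member. Paralog group 9 was at 1.61 ± 0.600 CPM with *bmp*, 1.91 ± 0.982 CPM with *chordin* and 0.301 ± 0.0903 CPM in uninjected embryos, so that all libraries of both injected groups lay above those of the uninjected one. *hoxa9a* held 37 of the 65 counts of this paralog group with *bmp* and 39 of 70 with *chordin*. Paralog group 1 was the only anterior group with its highest mean in *chordin*-overexpressing embryos, at 1.57 ± 0.947 CPM, against 0.863 ± 0.991 CPM with *bmp* and 0.942 ± 0.973 CPM in uninjected embryos, and its libraries overlap in every pair. These paralog groups were singled out after their values were seen.

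No *hox* gene passed the test in a comparison, and few had enough counts to be tested. With limma and voom weights, at a Benjamini-Hochberg adjusted p under 0.05, 0 of the 4 *hox* genes with enough counts were called in *bmp*-overexpressing against uninjected embryos, where 3.15% of all 16779 rows tested were called. 0 *hox* genes had enough counts for *chordin*-overexpressing against uninjected embryos (0.892% of all rows called), and 0 of 2 were called in *bmp*- against *chordin*-overexpressing embryos (5.04% of all rows called). At an unadjusted p under 0.05 the count was also 0 in both comparisons that had *hox* genes to test, and limma-trend, the other method run, called 0 there.

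The 4 genes tested with *bmp* against uninjected embryos had positive log2 fold changes with wide intervals. For *hoxc10a* the value was 3.34 (SE 1.70, limma adjusted p = 0.415), with a 95% interval of -0.13 to 6.81. *hoxc6b* was at 3.17 (SE 1.73, limma adjusted p = 0.457), *hoxa9a* at 2.34 (SE 1.66, limma adjusted p = 0.604) and *hoxa4a* at 0.88 (SE 1.65, limma adjusted p = 0.879). *bmp* against *chordin* gave 1.71 for *hoxc10a* (SE 1.41, limma adjusted p = 0.645) and 0.28 for *hoxa9a* (SE 1.05, limma adjusted p = 0.945). Single libraries moved several of these values: *hoxc6b* was at 1.71 without uninjected replicate 2, *hoxa9a* at 1.31 without uninjected replicate 1, and *hoxc10a* in *bmp* against *chordin* at 0.83 without *chordin* replicate 2 and 2.98 without *chordin* replicate 1. A gene could enter the test through the group where it was high, so these signs are no support for a direction.

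Without the filter on low counts, 43, 39 and 43 *hox* genes entered the 3 fits and 0 were called in each. In that fit 5 of 43 had an unadjusted p under 0.05 in *bmp*-overexpressing against uninjected embryos, which is about the share over all rows (11.2%). All 5 were higher with *bmp*, and the direction of the other rows under that p was not computed. The numbers were 0 of 39 in *chordin*-overexpressing against uninjected embryos (8.6% of all rows) and 6 of 43 in *bmp*- against *chordin*-overexpressing embryos (11.4% of all rows). Of these 6, 5 were higher with *bmp* and *hoxb1b* was lower. The lowest adjusted p was that of *hoxc13b* with *bmp* against uninjected embryos, 0.0615 at a log2 fold change of 4.00 (SE 1.15, limma without the filter).

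Low counts limited the test. Among tested rows with a mean of at most 1.5 CPM, where the *hox* genes lie, limma called 2 of 2659 with *bmp* against uninjected embryos, 0 of 2560 with *chordin* against uninjected embryos and 6 of 2488 with *bmp* against *chordin*. The smallest change called there was 5.71 on the log2 scale with *bmp* against uninjected embryos and 5.26 with *bmp* against *chordin*. A test that calls so few rows at this level does not show that the *hox* genes were alike between groups.

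Groups that did not overlap were few. Every *bmp* library was above every uninjected library for 4 of the 43 *hox* genes with a count (*hoxa3a*, *hoxb3a*, *hoxa9a* and *hoxc13b*), and 4.24% of the other rows with 1 to 100 counts showed this. The opposite held for 0 *hox* genes and 2.0% of those rows. With *chordin* against uninjected embryos the counts were 0 higher and 0 lower of 39 *hox* genes, against 3.33% and 1.97% of other rows. Every *bmp* library was above every *chordin* library for 6 of 43 *hox* genes (*hoxa1a*, *hoxa3a*, *hoxb3a*, *hoxc6b*, *hoxc12b* and *hoxc13b*, 3.62% of other rows) and below for 0 (3.0% of other rows). Some of these separations rest on counts within the limit given for a count of 0. *hoxa3a* had 3, 2 and 1 counts with *bmp* and 0 in every other library. The lowest *bmp* library of *hoxa1a* held 1 count against 0 with *chordin*, and that of *hoxc12b* 2 against at most 1. For *hoxc13b* the highest *chordin* library held 3 counts (0.341 CPM), which is at that limit, against 5 (0.398 CPM) in the lowest *bmp* library. Without scaling factors, *hoxb3a* no longer separated *bmp* from uninjected embryos, which left 3 genes.

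Group means gave the same order more broadly. 34 of 43 *hox* genes (79.1%) had a higher mean with *bmp* than in uninjected embryos, against 58.1% of other rows with 1 to 100 counts. For *bmp* against *chordin* it was 32 of 43 (74.4%), against 52.2%, and for *chordin* against uninjected embryos 21 of 39 (53.8%), against 56.1%. *bmp* against uninjected and *chordin* against uninjected embryos share the uninjected libraries, and many of these genes differ by a few counts.

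Replicates of a group were uneven. Of the *hox* genes with at least 10 counts in a group, a single library held at least 75% of the CPM for 8 of 20 with *bmp*, 8 of 15 with *chordin* and 9 of 18 in uninjected embryos. Among other rows of the same range of counts the shares were 44.1%, 42.8% and 46.5%. *hoxb8a*, with 18 of its uninjected counts in replicate 2 and none in the others, and *hoxa5a*, with 15 in uninjected replicate 1 alone, are examples.

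Clusters differed in how far they followed the sum. The *hoxcb* cluster (4 genes, chromosome 11) was at 2.85 ± 0.314 CPM with *bmp*, 0.380 ± 0.0848 CPM with *chordin* and 0.779 ± 0.489 CPM in uninjected embryos (SD, n = 3 each), and its *bmp* libraries (2.56 to 3.18 CPM) were above all others. Of its 117 counts with *bmp*, 46 were on *hoxc6b* and 43 on *hoxc13b*, both named as detected for their counts with *bmp*. All 4 genes lie in the joined locus with *hnrnpa1a*. The *hoxca* cluster (11 genes, chromosome 23) held the most counts and was at 3.84 ± 0.276 CPM with *bmp*, 3.11 ± 0.904 CPM with *chordin* and 2.56 ± 0.597 CPM in uninjected embryos. *hoxaa* (7 genes, chromosome 19) was at 2.60 ± 0.926 CPM with *bmp*, 1.56 ± 0.210 CPM with *chordin* and 1.24 ± 0.206 CPM in uninjected embryos. *hoxba* (11 genes, chromosome 3) was at 3.29 ± 1.33 CPM with *bmp*, 1.58 ± 0.369 CPM with *chordin* and 1.145 ± 0.796 CPM in uninjected embryos. In *hoxaa* and *hoxca* the *bmp* libraries lay above all uninjected libraries, and in *hoxba* the 2 groups overlap.

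The remaining clusters were lower. *hoxab* (5 genes, chromosome 16) was at 0.716 ± 0.217 CPM with *bmp*, 0.495 ± 0.431 CPM with *chordin* and 0.319 ± 0.178 CPM in uninjected embryos, with the lowest *bmp* library (0.533 CPM) just above the highest uninjected one (0.525 CPM). Each of these libraries held 8 counts, so this gap comes only from library size. *hoxbb* (4 genes, chromosome 12) was at 0.571 ± 0.446 CPM with *bmp*, 0.478 ± 0.642 CPM with *chordin* and 0.587 ± 0.271 CPM in uninjected embryos. *hoxda* (7 genes, chromosome 9) was at 0.483 ± 0.373 CPM with *bmp*, 0.720 ± 0.753 CPM with *chordin* and 0.172 ± 0.144 CPM in uninjected embryos. In *hoxbb* and *hoxda* the *bmp* mean was not the highest of the 3 groups, and their libraries overlap between *bmp* and both other groups. The 20 genes with a locus of their own summed to 5.66 ± 1.38 CPM with *bmp*, 3.84 ± 1.71 CPM with *chordin* and 2.34 ± 0.421 CPM in uninjected embryos (SD, n = 3 each), so the order of means was the same without the 29 genes of joined loci. For these 20 genes the *bmp* libraries (4.06 to 6.46 CPM) lay above the uninjected ones (1.90 to 2.74 CPM) but overlapped the *chordin* libraries (2.61 to 5.79 CPM), unlike the sum over all 49 genes.

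Even-skipped genes sit next to the paralog group 13 end of *hox* clusters. *eve1*, which acts in posterior and tail development of the zebrafish, lies 10.4 kb from *hoxb13a* on chromosome 3. It was at 252 ± 19.4 CPM with *bmp*, 16.5 ± 1.77 CPM with *chordin* and 134 ± 18.3 CPM in uninjected embryos (SD, n = 3 each). *eve1* rose with *bmp* (log2 fold change 0.90, SE 0.11, limma adjusted p = 6.63e-07) and fell with *chordin* (-3.01, SE 0.21, limma adjusted p = 5.75e-11). *hoxb13a* had 4 counts in the 9 libraries against 18212 for *eve1*, and all 4 were in uninjected embryos. *evx1* had 166 counts and *evx2* 44, against 15 for the neighbouring *hoxa13a* and 12 for *hoxd13a*, of which *evx1* was tested and did not pass and *evx2* had too few counts for the test.

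**Figure D4:**
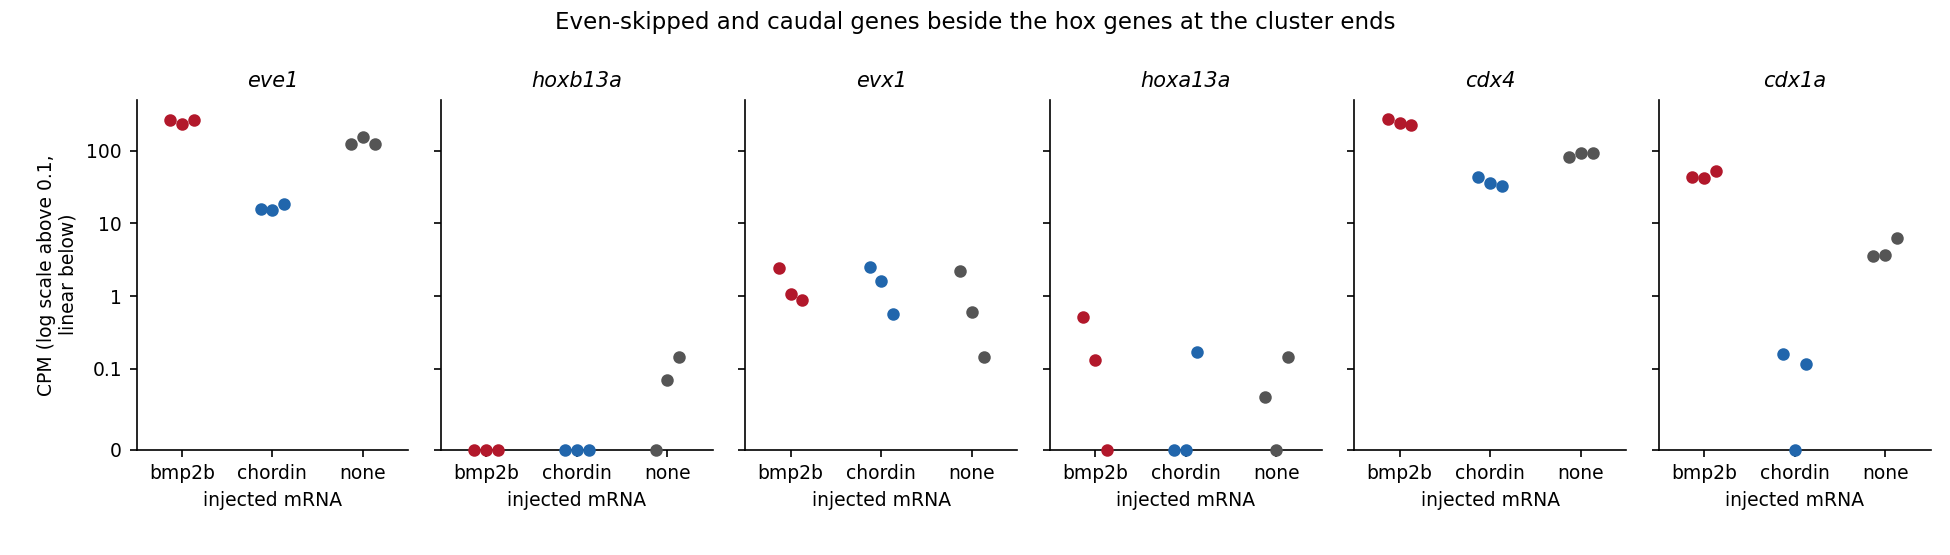
CPM (logarithmic above 0.1, linear below) in each replicate library (points) for *eve1* and *evx1*, for the *hox* genes nearest to them, *hoxb13a* and *hoxa13a*, and for *cdx4* and *cdx1a*, by injected mRNA. *eve1*, *cdx4* and *cdx1a* separate the 3 groups, while *hoxb13a* and *hoxa13a* stay near 0.

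Some caudal genes, which act upstream of *hox* genes, and the cluster neighbour *eve1* changed. Any link of these genes, or of the signal and regulator genes listed below, to the *hox* counts was not tested. Of 6 caudal and even-skipped genes, 4 had enough counts, and 3 (*eve1*, *cdx4* and *cdx1a*) rose with *bmp* while 2 (*eve1* and *cdx4*) fell with *chordin*. The median log2 fold change of the 4 was 1.26 with *bmp* and -2.15 with *chordin*, against 0.01 and 0.00 over all rows tested. *cdx4* was at 244 ± 24.2 CPM with *bmp*, 37.1 ± 5.34 CPM with *chordin* and 89.0 ± 5.92 CPM in uninjected embryos (SD, n = 3 each), and *cdx1a* at 46.3 ± 5.60, 0.0912 ± 0.0820 and 4.52 ± 1.59 CPM in the same groups. The change of *cdx1a* with *bmp* was 3.45 on the log2 scale (SE 0.32, limma adjusted p = 2.8e-09), and with *chordin* it was -5.17 (SE 1.56, limma adjusted p = 0.154).

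Of 18 retinoic acid genes, 11 were tested with *bmp* and 12 with *chordin*. *cyp26a1*, which breaks retinoic acid down, rose in both injected groups, by 0.94 on the log2 scale with *bmp* (SE 0.13, limma adjusted p = 8.31e-06) and by 0.73 with *chordin* (SE 0.13, limma adjusted p = 0.00217). The receptor *rarga* rose with *bmp* and *aldh1a2*, which makes retinoic acid, fell, at limma adjusted p = 0.00683 and 0.0289. Both calls were lost when single libraries were left out, *rarga* without uninjected replicate 2 (0.196) and *aldh1a2* without uninjected replicate 3, *bmp* replicate 2 or *bmp* replicate 3 (0.108 to 0.156). The list's median log2 fold change was -0.18 with *bmp* and 0.50 with *chordin*. Between the injected groups 12 were tested. There *rdh10a*, *rdh10b*, *raraa* and *aldh1a2* were lower with *bmp* than with *chordin*, *rarga* was higher, and 7 did not pass. *aldh1a2* was at -1.22 (SE 0.17, limma adjusted p = 6.59e-06), and this call held under each of 11 alternatives. The call of *rarga* was lost under 1 of 11.

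Of 8 FGF and Wnt ligand genes tested, *fgf8a* and *wnt8-2* rose with *bmp*, and *fgf8a* and *wnt11* rose with *chordin*. *wnt8-2*, a ligand of the ventral and lateral margin, was at 187 ± 38.0 CPM with *bmp*, 73.8 ± 15.3 CPM with *chordin* and 84.7 ± 17.5 CPM in uninjected embryos (SD, n = 3 each). *fgf8a* lost its call without uninjected replicate 2, at limma adjusted p = 0.157 with *bmp* and 0.180 with *chordin*, and with *chordin* also without *chordin* replicate 2 (0.0904). *wnt11* lost it without *chordin* replicate 2 or *chordin* replicate 3, at 0.0883 and 0.119. The median of the 8 genes was 0.44 with *bmp* and 0.43 with *chordin*.

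Of the hindbrain regulators, *irx7* and *irx1b* fell with *bmp* and rose with *chordin*. *irx7* was at 15.02 ± 4.24 CPM with *bmp*, 109 ± 1.67 CPM with *chordin* and 56.7 ± 6.19 CPM in uninjected embryos (SD, n = 3 each). *irx1b* was at 1.34 ± 0.983, 45.8 ± 5.60 and 13.6 ± 1.07 CPM in the same groups, and without *bmp* replicate 1 its fall with *bmp* was at limma adjusted p = 0.0524. The 5 other hindbrain genes tested with *bmp* and the 4 others tested with *chordin* did not pass. Of the *pbx*, *meis* and *pknox* genes, whose products bind DNA together with Hox proteins, 9 were tested with *bmp*, 10 with *chordin* and 8 between the injected groups, and limma called 0 in each. The most abundant cofactor gene, *pknox1.1*, was at 122 ± 16.3 CPM with *bmp*, 109 ± 9.46 CPM with *chordin* and 122 ± 13.5 CPM in uninjected embryos.

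Markers of the tissues in the embryo also moved. Of 9 neural plate genes tested, 6 fell with *bmp*, among them *otx1a*, *otx2* and *sox2*, and with *chordin* 3 rose, among them *otx1a* and *otx1b*, and 2 fell (*sox2* and *sox3*). Of 8 margin and mesoderm genes, 2 rose (*ta* and *tbx16*) and 1 fell (*msgn1*) with *bmp*, and 1 fell (*tbx6l*) with *chordin*. Of 8 enveloping layer genes, *krt5* fell with *bmp*, and of 5 early embryo factors *vrtn* fell with *bmp*. Several of these calls were lost when a library was left out. *msgn1* with *bmp* was at limma adjusted p = 0.104 to 0.422 without uninjected replicate 3, *bmp* replicate 2 or *bmp* replicate 3, and its log2 fold change of -0.61 became -0.38 without *bmp* replicate 2. *otx2* had 0 counts in each *bmp* library and 24, 122 and 85 in uninjected embryos. Its call with *bmp* was lost without any 1 of the *bmp* replicates (limma adjusted p = 0.0605 to 0.0850). In those fits its log2 fold change was -6.66 to -6.79. With *bmp*, *tbx16* lost its call without *bmp* replicate 1 (0.0654) and *vrtn* without uninjected replicate 2 (0.0598). With *chordin*, *sox2* was at 0.0562 to 0.170 without any 1 library other than uninjected replicate 1, and *sox3* at 0.0573 to 0.0904 without uninjected replicate 3 or any 1 of the *chordin* replicates. Between the injected groups, 5 neural plate genes were lower with *bmp* than with *chordin* and 4 did not pass. Of the margin and mesoderm genes 3 were higher with *bmp*, 1 was lower and 4 did not pass. Of the enveloping layer genes 3 (*krt4*, *krt5* and *krt8*) were lower with *bmp* and 5 did not pass. Of the early embryo factors 2 (*sox19b* and *nanog*) were lower with *bmp* and 3 did not pass. The call of *krt4* was lost under 7 of 11 alternatives and that of *krt8* under 3 of 11. There *otx2* (limma adjusted p = 0.000431) and *msgn1* (3.65e-05), both lower with *bmp*, kept their calls under every alternative that tested them. The part of these marker changes in the *hox* counts was not tested.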

How the data were processed

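Poly(A) RNA of 9 samples was sequenced without strand information. Per the labels, reads were aligned to GRCz10 with STAR 2.4.1b, with HTSeq among the tools listed, and its settings are not given in the sources used here. The authors deposited 3 tables, 1 per pair of groups, with whole-number read counts per gene (written with commas as separators, removed here) and, as the authors' group values, Cuffdiff 2.1.1 FPKM. The authors' own fold changes, p-values and calls (from edgeR, DESeq and Cuffdiff) were left aside. 0 columns belonged to other samples and 0 rows lacked a gene name.

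Counts were analysed with limma 3.58.1 in R 4.3.3 (voom weights, TMM factors computed for this work), with only the 2 groups compared in each fit and rows kept where 3 or more libraries reached the CPM equal to 10 counts at median depth and the sum was 15 or more. A count test was not run, because the columns with separators had not been recorded as counts. The values are whole numbers once the separators are removed. Whether a count test would call a *hox* gene was not tested here, and the calls of the authors' count tests (edgeR and DESeq) were left aside. Printed CPM were scaled by TMM across the 9 libraries. The fit was tested on simulated data, with changes planted only in rows of more counts than the *hox* genes hold. That test therefore does not cover the level of the *hox* genes. With 3 libraries a group, precision rests on replicates and, for *hox* genes, on depth.

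The members, gene lists and tests were chosen with earlier results of these data known. By rule, the text names each *hox* gene detected in a group or above 3 counts in some library, and called genes of the lists. The 5 *hox* genes without counts, *hoxa3a*, *hoxb13a*, *evx1*, *evx2*, *pknox1.1* and *hnrnpa1a* were named after their values were seen. Alternatives were no filter, RLE factors, limma-trend, a fit of all 3 groups together, a replicate block, an adjusted p under 0.1, other detection limits, thinning to 8861308 counts, and each library left out. Those on summed CPM were added after seeing the data. All 49 symbols matched RefSeq's gene table. Python 3.11.15, pandas 2.3.3 and matplotlib 3.10.9 were used.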

Additional observations from a re-analysis of the deposited data

How the results depend on the processing

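The number of *hox* genes called was 0 under each of the 12 alternatives for *bmp* against uninjected embryos and for *bmp* against *chordin*, a replicate block included. For *chordin* against uninjected embryos *hox* genes entered the test only without the filter (39) and with all 3 groups in the fit (4), with 0 called in both, and the other alternatives, the block included, tested 0 and say nothing of stability. Deviations of same-numbered libraries correlated at -0.02 to 0.06, and those of unlike-numbered libraries at -0.079 to 0.105. With so few libraries a group, such values cannot tell whether same-numbered samples shared a clutch or a batch. The block, like limma-trend, turned the sign of *hoxa9a* in *bmp* against *chordin* (-0.32 with the block and -0.075 with limma-trend, against 0.28 as reported). Leaving out 1 library moved it between -0.81 and 0.72. With the block, *hoxa4a* in *bmp* against uninjected embryos was 0.26, against 0.88 as reported, and *hoxc10a* in *bmp* against *chordin* 1.09, against 1.71. Detected *hox* genes with *bmp* numbered 12 at 1 count or more in each library, 2 at more than 10 and 4 when libraries were thinned to the shallowest, against 7 as reported. With *chordin* they numbered 2, 0 and 0 under these settings and 2 to 6 with 1 library left out. In uninjected embryos they numbered 7 at 1 count or more and 0 to 4 with 1 library left out. With *bmp* and 1 library left out they numbered 8 to 9. Shares of other rows under these settings were not computed. The ratio of summed *hox* CPM, *bmp* over uninjected, under alternatives chosen after seeing the data, was 2.42 without genes of joined loci, 1.41 without the detected genes and 1.89 without *hoxc6b* and *hoxc13b*. *chordin* over uninjected was 1.64 without genes of joined loci. For the listed genes named in the text, calls against uninjected embryos were also compared under settings other than a left-out library. Those lost were *aldh1a2* with *bmp* without the filter (limma adjusted p = 0.0581) and *msgn1* with *bmp* without the filter (0.0778) and with all 3 groups in the fit (0.0521). The cause of these shifts was not tested. Depth limits every value here, since most members hold fewer than 10 counts in a library.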

Other observations

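Some transcripts of unknown role share the joined loci with *hox* genes, and these were chosen after their values were seen. *si:dkey-81p22.11*, in the joined locus of *hoxc1a* to *hoxc9a* on chromosome 23, had 43, 99 and 79 counts in *bmp*-overexpressing embryos, 22, 2 and 23 in *chordin*-overexpressing embryos and 22, 63 and 25 in uninjected embryos. For *si:dkey-81p22.11* that is 5.34 ± 1.91 CPM with *bmp*, 1.099 ± 0.784 CPM with *chordin* and 1.99 ± 0.652 CPM in uninjected embryos (SD, n = 3 each). Neither *bmp* against uninjected embryos (log2 fold change 1.32, SE 0.56, limma adjusted p = 0.273) nor *bmp* against *chordin* (2.30, SE 0.86, limma adjusted p = 0.152) passed. *LOC108191720*, in the locus of *hoxb8b* on chromosome 12, had 7, 29 and 13 counts with *bmp*, 16, 0 and 4 with *chordin* and 4, 4 and 5 in uninjected embryos. Of the 6 microRNA genes listed in these loci, *mir10a*, *mir10c* and *mir196d* had no count in any library, and the others had counts in uninjected embryos, with 14 for *mir196a-1* in replicate 1, 5 for *mir196c* in replicate 2 and 1 for *mir10b-2* in replicate 3. Counts in 1 library each show no difference between groups, and microRNA levels were not measured by these poly(A) libraries.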
